A study of Mus musculus with 36 samples.

Results

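The late culture of T helper type 2 (Th2) cells that lack the Argonaute proteins AGO1, AGO3 and AGO4 was described from 7 small RNA libraries, 3 of culture day 14 and 4 of culture day 7. They were chosen by their genotype and time labels from the 36 libraries of the series. Both groups carried the genotype AGO134-/- (called A134 here) on the C57BL/6J strain, so the loss of AGO1, AGO3 and AGO4 was common to them, and the labels set them apart by the time in culture. The day 14 libraries bear the numbers 2, 3 and 4 and the day 7 libraries the numbers 1 to 4. The matching wild-type (WT) libraries, from littermates on the same strain, were 3 of day 14 and 4 of day 7. The cells were primary CD4+ TCRb+ T cells sorted by FACS from mouse spleen as naive cells, then activated and driven towards the Th2 type in vitro. The labels do not name the animal or culture behind a library, so p-values measure the spread between libraries, which may be technical. Counts of mature miRNAs do not report on the deleted genes, so the genotype labels could not be checked from these values.

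A microRNA (miRNA) is cut from a hairpin as a pair of strands, 5p and 3p. One strand is loaded into an Argonaute protein and guides it to messenger RNAs that pair with bases 2 to 8 of the miRNA, the seed, and the other strand is usually lost. Mice have AGO1, AGO2, AGO3 and AGO4, of which AGO2 cuts RNA, and the labels name no change of AGO2 in these cells. In CD4 T cells, activation replaces much of the naive miRNA set, and miRNAs such as miR-155, miR-146a, the miR-17-92 cluster and the miR-23-27-24 clusters are known to set the strength of helper T cell responses. Th2 cells make interleukins 4, 5 and 13 and direct type 2 immunity.

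The mature sequences of the miRNAs on which the results turn are given first, 5′ to 3′, from RefSeq (GRCm38.p6), with the seed in capitals. The strands of the miR-132/miR-212 hairpins, which fell in A134 cells with a change below that of WT cells, are shown because both 3p strands carry one seed while the 5p strands do not.
miR-132-3p: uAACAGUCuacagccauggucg
miR-212-3p: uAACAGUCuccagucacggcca
miR-132-5p: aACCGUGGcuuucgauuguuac
miR-212-5p: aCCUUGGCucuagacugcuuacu

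The strands of the miR-221/miR-222 hairpins rose, and their 3p strands share a seed.
miR-221-3p: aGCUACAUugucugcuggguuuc
miR-222-3p: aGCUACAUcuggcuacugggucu
miR-221-5p: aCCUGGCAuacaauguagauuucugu

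The 4 members of the miR-181 family have a common seed and fell together.
miR-181a-5p: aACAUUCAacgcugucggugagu
miR-181b-5p: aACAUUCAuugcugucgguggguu
miR-181c-5p: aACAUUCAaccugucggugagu
miR-181d-5p: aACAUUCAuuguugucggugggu

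Within the miR-17-92 clusters and their X-linked paralogs, the miR-18 and miR-19 pairs fell the most.
miR-18a-5p: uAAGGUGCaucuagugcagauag
miR-18b-5p: uAAGGUGCaucuagugcuguuag
miR-19a-3p: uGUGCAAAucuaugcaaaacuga
miR-19b-3p: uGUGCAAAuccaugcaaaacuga

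The miRNAs with large increases, or with increases at a high level, came from several families. miR-125a-5p and miR-351-5p lie on different chromosomes and share a seed.
miR-31-5p: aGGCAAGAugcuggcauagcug
miR-23b-5p: gGGUUCCUggcaugcugauuu
miR-147-5p: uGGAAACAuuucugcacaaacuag
miR-125a-5p: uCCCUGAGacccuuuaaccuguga
miR-351-5p: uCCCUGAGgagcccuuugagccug
miR-182-5p: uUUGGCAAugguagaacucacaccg
miR-96-5p: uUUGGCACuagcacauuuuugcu

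miR-10a-5p and miR-146b-5p did not pass the test in A134 cells and rose in WT cells, and miR-139-5p fell in both.
miR-10a-5p: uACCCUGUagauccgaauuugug
miR-146b-5p: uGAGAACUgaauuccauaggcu
miR-139-5p: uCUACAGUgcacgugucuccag

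Each library held 125803 to 238454 counts over 1966 mature miRNA names in the A134 groups, and 215215 to 273724 in the WT groups. In the A134 libraries 530 to 676 names had a count, and an miRNA without counts may reach up to 3 counts, which corresponded to 12.6 to 23.8 CPM (counts scaled to a library total of 1000000). This limit was taken before the scaling of the levels given below, so it is not on quite the same scale as they are. It covers counting error only, while SDs and SEs below measure the spread between libraries. Library 4 of A134 day 7 stood apart with the lowest depth, 125803 counts, and the fewest names, 530. Levels are CPM after scaling by the trimmed mean of M values (TMM), and changes are log2 fold changes of day 14 over day 7 from edgeR's quasi-likelihood test with Benjamini-Hochberg adjustment over 382 miRNAs. A call means an adjusted p under 0.05.

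Between day 7 and day 14 the A134 cells changed a large part of their miRNA set. Of 382 miRNAs tested, 171 were called (44.8%), 82 higher (21.5%) and 89 lower (23.3%) at day 14, and the median log2 fold change over all of them was -0.04. A change of at least 2-fold was seen for 95 of the called miRNAs, 46 higher and 49 lower. Without library 4 of day 7, 169 were called, 80 higher and 89 lower. The 3 day 14 libraries lay entirely above the 4 day 7 libraries for 81 miRNAs and entirely below them for 90, together 44.8% of those tested, and 149 of the 171 called miRNAs were separated in this way. In RNA from whole cultures, fewer cells of a type and less of an miRNA per cell cannot be told apart.

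**Figure D1:**
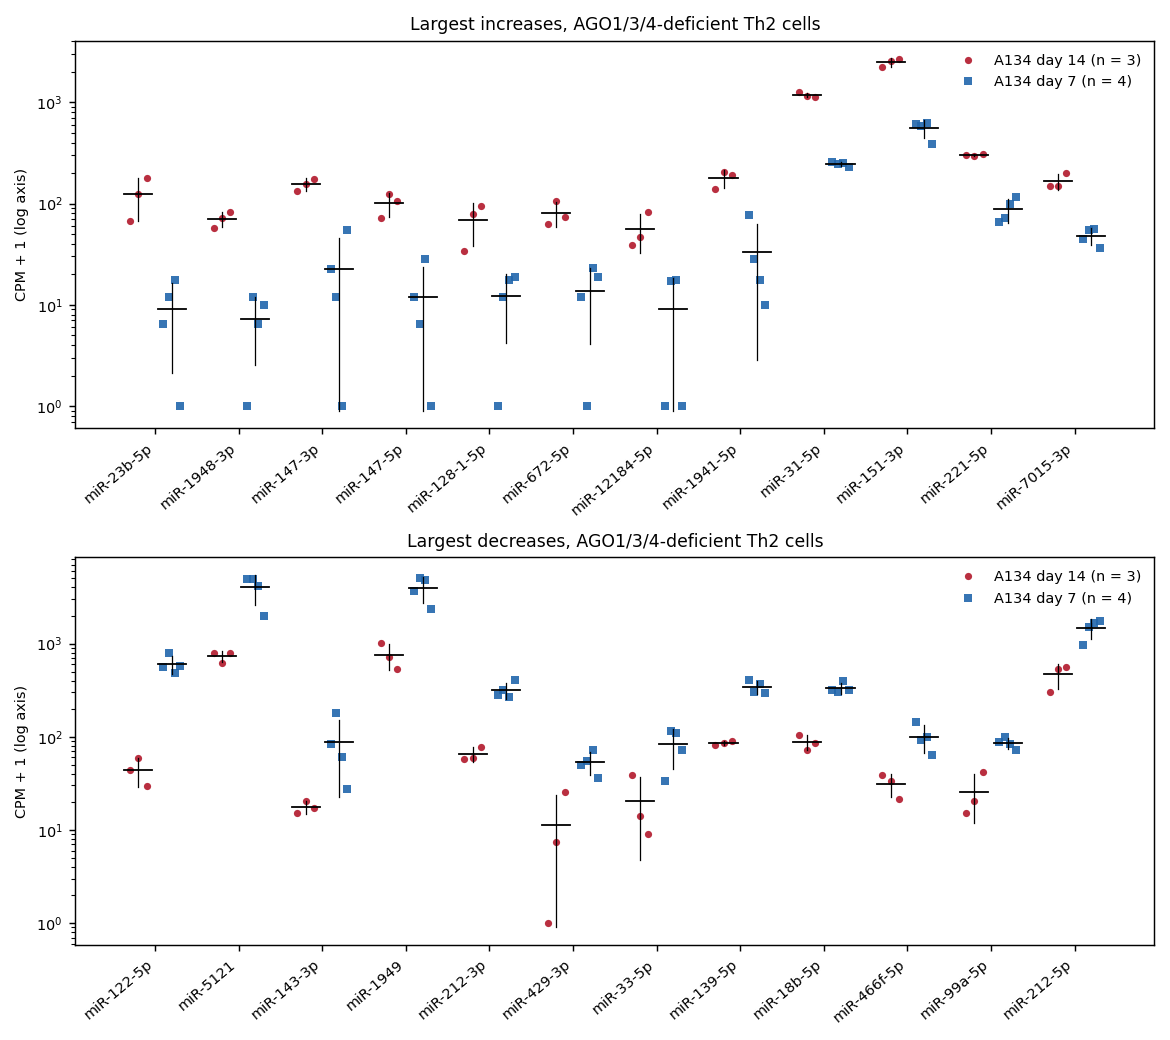
Levels of the 12 largest called increases (top) and decreases (bottom) among miRNAs with a group mean of at least 50 CPM in A134 Th2 cells, as CPM + 1 on a log axis. Each point is 1 library, day 14 left of day 7, and bars give the mean and SD, with an SD that reaches below 0.9 drawn to the foot of the axis. The groups are separate for all but miR-33-5p.

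Among called miRNAs with a group mean of at least 50 CPM, the largest increase belonged to miR-23b-5p, the minor strand of a hairpin whose 3p strand is abundant. It had 66.2, 124 and 179 CPM in the day 14 libraries, against 5.44, 10.8, 16.4 and 0 CPM in the day 7 libraries. The groups did not overlap, and the log2 fold change was 3.71 ± 0.51 (SE; adjusted p = 1.1e-06), although only 77 counts at day 14 and 6 counts at day 7 lay behind it. Its hairpin lies in an intron of 2010111I01Rik on chromosome 13.

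Both strands of miR-147, an miRNA induced by Toll-like receptor signals in mouse macrophages, had at most 6 counts in any day 7 library and at least 15 in each day 14 library. miR-147-3p had 132, 156 and 175 CPM at day 14, against 21.8, 10.8, 0 and 53.2 CPM at day 7, a log2 fold change of 3.05 ± 0.53 (SE; adjusted p = 4.7e-05). miR-147-5p had 70.9, 124 and 106 CPM at day 14, against 10.9, 5.4, 27.4 and 0 CPM at day 7, a log2 fold change of 2.98 ± 0.55 (SE; adjusted p = 6.9e-05). For both strands every day 14 library exceeded every day 7 library.

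Similarly low at day 7 were miR-1948-3p, miR-672-5p, miR-12184-5p and miR-128-1-5p, which have 4 to 8 counts in all over the 4 day 7 libraries. miR-1948-3p averaged 69.9 ± 12.5 CPM at day 14 and 6.29 ± 4.74 CPM at day 7 (SD, n = 3 and 4), a log2 fold change of 3.42 ± 0.64 (SE; adjusted p = 7.5e-05). miR-672-5p averaged 79.6 ± 21.9 CPM at day 14 and 12.6 ± 9.57 CPM at day 7, a log2 fold change of 2.63 ± 0.75 (SE; adjusted p = 0.00631). miR-12184-5p, from an intron of Gpld1, changed by 2.58 ± 0.61 (SE; adjusted p = 0.00147) and miR-128-1-5p, from an intron of R3hdm1, by 2.63 ± 0.53 (SE; adjusted p = 0.0002). All 4 were at 0 in at least 1 day 7 library and in no day 14 library.

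Other increases were measured with more counts. miR-31-5p, which is reported to repress FOXP3 in human T cells, had 1253, 1164 and 1137 CPM at day 14, against 256, 243, 252 and 231 CPM at day 7. The libraries within each day lay close together, and the log2 fold change was 2.26 ± 0.15 (SE; adjusted p = 2.5e-12). miR-151-3p had 2223, 2568 and 2662 CPM at day 14, against 615, 578, 629.8 and 390.4 CPM at day 7, with a log2 fold change of 2.15 ± 0.21 (SE; adjusted p = 5.1e-09). Its partner strand miR-151-5p had 2833, 3127 and 2935 CPM at day 14, against 1322, 1259, 1287 and 1109 CPM at day 7, with a log2 fold change of 1.25 ± 0.15 (SE; adjusted p = 1.2e-07). Both strands of this hairpin were thus higher in every day 14 library.

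miR-1941-5p had 137, 202 and 192 CPM at day 14, against 76.2, 27.0, 16.4 and 8.87 CPM at day 7, and its log2 fold change was 2.34 ± 0.39 (SE; adjusted p = 4.7e-05). The day 7 libraries were spread widely, yet the highest of them stayed below the lowest day 14 library. miR-7015-3p, from an intron of Smap2, had 147, 149.5 and 199.7 CPM at day 14, against 43.5, 54.0, 54.8 and 35.5 CPM at day 7, and its log2 fold change was 1.79 ± 0.31 (SE; adjusted p = 3.2e-05).

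Among called miRNAs with a group mean of at least 50 CPM, the largest decrease was that of miR-122-5p, the liver's dominant miRNA. It had 42.6, 58.5 and 28.5 CPM at day 14, against 566, 789, 482 and 577 CPM at day 7, a log2 fold change of -3.85 ± 0.29 (SE; adjusted p = 2.9e-11). miR-143-3p, best known from smooth muscle and stromal cells, had 14.2, 19.5 and 16.3 CPM at day 14, against 81.6, 178, 60.2 and 26.6 CPM at day 7, a log2 fold change of -2.45 ± 0.67 (SE; adjusted p = 0.00348). The groups were separate for both, with day 7 values of miR-143-3p spread over a wide range. Both belong to marker lists of other tissues described further on. The summed level of the epithelial, liver and muscle list, with miR-122-5p, was also lower at day 14. That of the endothelial and stromal list, with miR-143-3p, overlapped between the days. The part of such cells or of their RNA in these decreases was not tested.

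miR-5121 and miR-1949 fell by similar amounts and had similar levels. The miR-5121 sequence lies within exons of Rpl13a and Snord33 on chromosome 7, and whether its counts come from RNA of those genes was not tested. miR-5121 had 785, 624 and 787 CPM at day 14, against 4991, 4977, 4124 and 1987 CPM at day 7, with a log2 fold change of -2.46 ± 0.23 (SE; adjusted p = 2.7e-09). miR-1949 had 1007, 709 and 538 CPM at day 14, against 3635, 5091, 4857 and 2342 CPM at day 7, with a log2 fold change of -2.41 ± 0.25 (SE; adjusted p = 8.9e-09). Library 4 of day 7 was the lowest of its group for both and still above every day 14 library.

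miR-139-5p, from an intron of the phosphodiesterase gene Pde2a, fell with little spread within each day. It had 80.4, 84.5 and 89.7 CPM at day 14, against 403, 303, 367 and 293 CPM at day 7, and the log2 fold change was -2.01 ± 0.25 (SE; adjusted p = 3e-07). miR-33-5p, from an intron of Srebf2 and a repressor of the cholesterol exporter Abca1, had 37.8, 13.0 and 8.15 CPM at day 14, against 32.7, 113, 109.5 and 71.0 CPM at day 7. Here 1 day 14 library lay above the lowest day 7 library, and the log2 fold change was -2.04 ± 0.49 (SE; adjusted p = 0.00119). miR-99a-5p had 14.2, 19.5 and 40.8 CPM at day 14, against 87.1, 97.3, 82.1 and 71.0 CPM at day 7, a log2 fold change of -1.69 ± 0.43 (SE; adjusted p = 0.00217). With 16 counts at day 14 and 57 at day 7 for miR-99a-5p, and 12 and 55 for miR-33-5p, these are low levels.

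The miR-132/miR-212 cluster, on chromosome 11 at chr11:75173403-75173744 (plus strand, GRCm38.p6) within an intron of 1700016P03Rik, fell as a whole. miR-132 and miR-212 are known as miRNAs induced by the transcription factor CREB, and they are induced when T cells are activated. miR-212-5p had 303, 533 and 563 CPM at day 14, against 974, 1513, 1681 and 1757 CPM at day 7, a log2 fold change of -1.66 ± 0.21 (SE; adjusted p = 3.6e-07). miR-212-3p had 56.7, 58.5 and 77.5 CPM at day 14, against 283, 313, 268 and 408 CPM at day 7, a log2 fold change of -2.25 ± 0.28 (SE; adjusted p = 2.8e-07). All day 14 libraries were below all day 7 libraries for both strands. miR-132-5p had 132, 169 and 261 CPM at day 14, against 288, 367, 367 and 621 CPM at day 7, a log2 fold change of -1.07 ± 0.23 (SE; adjusted p = 0.00043). miR-132-3p had 312, 436 and 351 CPM at day 14, against 909, 924, 931 and 1819 CPM at day 7, a log2 fold change of -1.64 ± 0.27 (SE; adjusted p = 1.6e-05). Library 4 of day 7 lay far above the other 3 for miR-132-3p, and leaving out 1 library at a time kept this log2 fold change between -1.73 and -1.34. Summed over the shared 3p seed AACAGUC, the level was 430.3 ± 62.6 CPM at day 14 and 1464 ± 509 CPM at day 7 (SD, n = 3 and 4).

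The miR-221/miR-222 cluster, on chromosome X at chrX:19146307-19146923 (minus strand, GRCm38.p6), rose as a whole. miR-221 and miR-222 are known to repress the cell-cycle inhibitor p27Kip1 (Cdkn1b). miR-221-3p had 1707, 858 and 1101 CPM at day 14, against 697, 546, 608 and 559 CPM at day 7, a log2 fold change of 1.02 ± 0.20 (SE; adjusted p = 0.00011). miR-222-3p had 1390.3, 949 and 1117 CPM at day 14, against 473, 389, 367 and 550.1 CPM at day 7, a log2 fold change of 1.39 ± 0.19 (SE; adjusted p = 6.7e-07). The minor strand miR-221-5p had 298, 293 and 309.8 CPM at day 14, against 65.3, 70.3, 98.6 and 115 CPM at day 7, a log2 fold change of 1.82 ± 0.25 (SE; adjusted p = 1.1e-06). No day 14 library fell within the day 7 range for any of the 3 strands. Summed over the shared 3p seed GCUACAU, the level was 2374 ± 659 CPM at day 14 and 1047 ± 111 CPM at day 7.

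In absolute level, the largest gain among called miRNAs was that of miR-22-3p, a broadly expressed miRNA, which was picked here after its values were seen. It averaged 31131 ± 4126 CPM at day 14 and 15368 ± 2415 CPM at day 7 (SD, n = 3 and 4), which moved it to rank 7 at day 14, against rank 21 at day 7. Its log2 fold change was 1.02 ± 0.14 (SE; adjusted p = 6.9e-07). miR-182-5p, induced by interleukin 2 in helper T cells and a repressor of Foxo1, had 41048, 48523 and 36459.9 CPM at day 14, against 28893, 31144, 31982 and 33314 CPM at day 7. It was second in rank at day 14 and seventh at day 7, with a log2 fold change of 0.42 ± 0.12 (SE; adjusted p = 0.00631).

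The largest loss of level was that of miR-150-5p, a lymphocyte miRNA that represses Myb. It had 17034, 18885 and 11916 CPM at day 14, against 26945, 27675, 27250.1 and 23439.7 CPM at day 7, and moved to rank 20 at day 14, against rank 10 at day 7. The groups were separate and the log2 fold change was -0.72 ± 0.16 (SE; adjusted p = 0.00069). miR-30c-5p averaged 7660.3 ± 1477 CPM at day 14 and 14302 ± 1848 CPM at day 7, a log2 fold change of -0.90 ± 0.15 (SE; adjusted p = 1.4e-05).

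Of the 10 miRNAs with the highest mean over the 7 libraries, miR-182-5p alone passed the test, and it did not pass with scaling by the STD entries, 9 unexplained entries of each file (adjusted p = 0.0927). With loess offsets miR-25-3p and miR-27b-3p passed as lower (adjusted p = 0.0375 and 0.0486). miR-26a-5p averaged 44374 ± 7406 CPM at day 14 and 49788 ± 6098 CPM at day 7, and let-7f-5p averaged 41629 ± 4861 CPM at day 14 and 42466 ± 7831 CPM at day 7. For miR-21a-5p, an miRNA raised by T cell activation, the means were 31406 ± 5122 CPM at day 14 and 37847 ± 5436 CPM at day 7 (adjusted p = 0.105), and without library 2 of day 14 it passed as lower (adjusted p = 0.0404). let-7i-5p, let-7a-5p, let-7g-5p, miR-25-3p, miR-191-5p and miR-27b-3p also had overlapping groups, with log2 fold changes between -0.20 and 0.22. The 10 most abundant miRNAs of each library held 31.8% to 34.4% of its counts at day 14 and 32.1% to 36.2% at day 7 (two-sided exact permutation test, p = 0.743), in a design whose smallest possible p is 0.0571.

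Of 12 miRNAs of a core T cell set, 4 fell at day 14 and 8 did not pass, where 23.3% of all tested miRNAs fell and 44.8% were called. The median log2 fold change was -0.31, against -0.04 over all tested miRNAs. The 4 were miR-142a-3p, miR-150-5p, miR-181a-5p and miR-27a-3p. miR-142a-3p, from a hairpin specific to blood cells, had 2024, 1300.2 and 1272 CPM at day 14, against 2645, 2648, 3987 and 2892 CPM at day 7, a log2 fold change of -0.99 ± 0.22 (SE; adjusted p = 0.00054). miR-27a-3p, a brake on Th2 differentiation in mice, had 7841, 7580.1 and 7358 CPM at day 14, against 9361, 8652, 9239 and 12368 CPM at day 7, a log2 fold change of -0.38 ± 0.12 (SE; adjusted p = 0.0123). The groups were separate for both, but miR-27a-3p did not pass without library 4 of day 7 (adjusted p = 0.0676), without library 3 of day 14 (adjusted p = 0.0646), with STD scaling (adjusted p = 0.158) or without the filter on low counts (adjusted p = 0.175).

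The other 8 members of that set did not pass. miR-155-5p, which Th2 responses need in mice, averaged 15277 ± 3719 CPM at day 14 and 13694 ± 1718 CPM at day 7, with overlapping groups. miR-146a-5p, which dampens NF-kB signalling through Traf6 and Irak1, averaged 7739 ± 1501 CPM at day 14 and 8871 ± 564 CPM at day 7. miR-29a-3p, a repressor of T-bet and interferon gamma in mouse T cells, averaged 5755 ± 952 CPM at day 14 and 5745 ± 522 CPM at day 7, and miR-24-3p averaged 16525 ± 2267 CPM at day 14 and 16477 ± 1041 CPM at day 7. Their log2 fold changes ranged from -0.20 to 0.16. The remaining ones were miR-142a-5p, miR-17-5p, miR-21a-5p and let-7g-5p, with log2 fold changes from -0.45 to -0.09.

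All 4 members of the miR-181 family, which raises T cell receptor sensitivity by repressing phosphatases, fell. miR-181a-5p had 4048, 3322 and 3465 CPM at day 14, against 5899, 6582, 5969 and 5376 CPM at day 7, a log2 fold change of -0.72 ± 0.17 (SE; adjusted p = 0.00124). miR-181b-5p had 525, 397 and 428 CPM at day 14, against 1023, 903, 767 and 1011 CPM at day 7, a log2 fold change of -1.03 ± 0.14 (SE; adjusted p = 1.3e-06). The rarer miR-181c-5p and miR-181d-5p changed by -1.17 and -1.15 on the log2 scale, and none of the 4 had overlapping groups. Summed over their seed ACAUUCA, the level was 4559 ± 440.3 CPM at day 14 and 8002 ± 398 CPM at day 7.

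The miR-17-92 cluster and its paralogs promote the proliferation and survival of lymphocytes. Of 13 listed strands tested, 8 fell and 5 did not pass, against 23.3% lower over all tested miRNAs, with a median log2 fold change of -0.51. Of these, miR-17-5p and miR-106b-5p were the minor strands of their hairpins, whose 3p strands did not pass (adjusted p = 0.183 and 0.146). Over all tested strands, 4 fell and 2 rose in the miR-17-92 cluster, and 3 fell and 1 rose in the X-linked one. Of those that rose, miR-92a-1-5p averaged 3347 CPM at day 14 and 1552 CPM at day 7, a log2 fold change of 1.11 (adjusted p = 8.1e-06). miR-18a-5p had 1480.2, 1170.2 and 1239 CPM at day 14, against 2949.7, 2875, 2826 and 3371 CPM at day 7, a log2 fold change of -1.21 ± 0.14 (SE; adjusted p = 4.8e-08). miR-18b-5p had 104, 71.5 and 85.6 CPM at day 14, against 316, 303, 399.8 and 319 CPM at day 7, a log2 fold change of -1.92 ± 0.26 (SE; adjusted p = 9.9e-07). miR-19a-3p and miR-19b-3p, which promote Th2 cytokine production in mice, changed by -1.63 ± 0.33 (SE; adjusted p = 0.00019) and by -1.18 ± 0.22 (SE; adjusted p = 7.5e-05). miR-17-5p, from the transcript of miR-18a and miR-19a, had 1305, 754 and 856 CPM at day 14, against 1312, 978, 1287 and 1774 CPM at day 7, groups that overlapped, with adjusted p = 0.146. Without library 2 of day 14 it passed as lower (adjusted p = 0.0401). By seed, the miR-18 pair (AAGGUGC) summed to 1384 ± 179 CPM at day 14 and 3339.8 ± 237 CPM at day 7, and the miR-19 pair (GUGCAAA) to 1051 ± 218 CPM at day 14 and 2460.5 ± 323 CPM at day 7. The 6 members with the miR-17 seed (AAAGUGC) summed to 18736 ± 2376 CPM at day 14 and 25018 ± 1308 CPM at day 7.

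In the miR-15/miR-16 family, which restrains the cell cycle and Bcl2, 2 of 5 tested members fell, where 23.3% of all tested miRNAs fell. miR-16-5p had 20363, 21206 and 19053 CPM at day 14, against 25824, 26275, 25936 and 25950.5 CPM at day 7, a log2 fold change of -0.36 ± 0.10 (SE; adjusted p = 0.00421). miR-15b-5p had 11543, 9634 and 9853 CPM at day 14, against 15162, 13738, 13904 and 13468 CPM at day 7, a log2 fold change of -0.44 ± 0.12 (SE; adjusted p = 0.0037). The groups were separate for both. With STD scaling neither passed (adjusted p = 0.0538 for miR-16-5p and 0.0937 for miR-15b-5p), nor without the filter on low counts (adjusted p = 0.186 and 0.0651). miR-16-5p also did not pass with DESeq2 size factors (adjusted p = 0.0507) or with all locus entries (adjusted p = 0.0699). The log2 fold change of miR-15a-5p was -0.40 (adjusted p = 0.102), with overlapping groups. In the miR-30 family, 2 of 5 fell, miR-30c-5p and miR-30e-5p. In the miR-130/miR-301 family 2 of 4 fell, where miR-301a-3p changed by -1.31 ± 0.19 (SE; adjusted p = 2.1e-06) and miR-301b-3p by -1.54 ± 0.21 (SE; adjusted p = 1.1e-06).

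In the miR-183-96-182 cluster on chromosome 6, 4 of 5 tested strands rose, against 21.5% of all tested miRNAs, with a median log2 fold change of 1.42. miR-96-5p had 2913, 3179 and 4109 CPM at day 14, against 1399, 1032, 1183 and 1508 CPM at day 7, a log2 fold change of 1.42 ± 0.19 (SE; adjusted p = 8.6e-07). miR-183-3p had 591, 624 and 636 CPM at day 14, against 212, 162, 203 and 195 CPM at day 7, a log2 fold change of 1.67 ± 0.20 (SE; adjusted p = 1.7e-07). The log2 fold change of miR-183-5p, the strand that did not pass, was 0.25 (adjusted p = 0.135). The most abundant strand of the cluster, miR-182-5p, changed by 0.42 on the log2 scale.

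In the miR-99b/let-7e/miR-125a cluster, which lies within Spaca6 on chromosome 17, 4 of 5 strands rose, against 21.5% of all tested miRNAs. miR-125a-5p had 7344, 11487 and 9519 CPM at day 14, against 2324, 3102, 3001 and 3176 CPM at day 7, a log2 fold change of 1.70 ± 0.14 (SE; adjusted p = 1.1e-10). let-7e-5p had 4923, 6286 and 6005 CPM at day 14, against 2536, 2772, 1391 and 3256 CPM at day 7, a log2 fold change of 1.21 ± 0.20 (SE; adjusted p = 2e-05). miR-99b-5p had 15246, 24288 and 16729.8 CPM at day 14, against 9121, 11543, 11572 and 14426 CPM at day 7, a log2 fold change of 0.69 ± 0.17 (SE; adjusted p = 0.00122). All 3 were higher in every day 14 library. miR-351-5p, which shares the miR-125 seed CCCUGAG and belongs to the miR-322/miR-503 cluster of chromosome X, changed by 0.58 ± 0.13 (SE; adjusted p = 0.00073) and did not pass with STD scaling (adjusted p = 0.0576). The 3 tested miRNAs with that seed summed to 13581 ± 2364 CPM at day 14 and 5681 ± 676 CPM at day 7.

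let-7e-5p belongs to the let-7 family, the most abundant seed of the libraries. Of 9 let-7 and miR-98 guide strands, 1 rose (let-7e-5p) and 1 fell (miR-98-5p), where 21.5% of all tested miRNAs rose and 23.3% fell. The median log2 fold change was -0.03. miR-98-5p changed by -0.38 ± 0.11 (SE; adjusted p = 0.00713) and did not pass without library 2 of day 14 (adjusted p = 0.0697), with STD scaling (adjusted p = 0.0596), without the filter (adjusted p = 0.175) or with all locus entries (adjusted p = 0.0754). The seed GAGGUAG summed to 199541 ± 27608 CPM at day 14 and 205113 ± 25205 CPM at day 7, with overlapping groups. let-7 members differ by few bases, and how reads were divided among them is not stated in the labels.

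Genomic clusters were described by counts, taking hairpins within 10 kb of each other on 1 strand as a cluster. Of 28 clusters with tested members, 24 held at least 2 called strands. Clusters held 2 to 11 tested strands, so this count is not comparable with the 44.8% of single miRNAs called. The calls pointed higher in 6 of the 24, lower in 12, and both ways in 6. Some mature miRNAs come from more than 1 hairpin, such as miR-181a-5p, miR-16-5p and miR-24-3p, and were counted in each of their clusters. Only the 1 entry kept for each name was used, so its value may come from another locus than the cluster's. The miR-322/miR-503 cluster was mixed, with 4 strands higher and 1 lower of 11. There miR-503-5p changed by 0.64 ± 0.18 (SE; adjusted p = 0.00363) and miR-450b-5p by -1.11 ± 0.26 (SE; adjusted p = 0.00106), and with STD scaling miR-503-5p did not pass (adjusted p = 0.111).

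**Figure D2:**
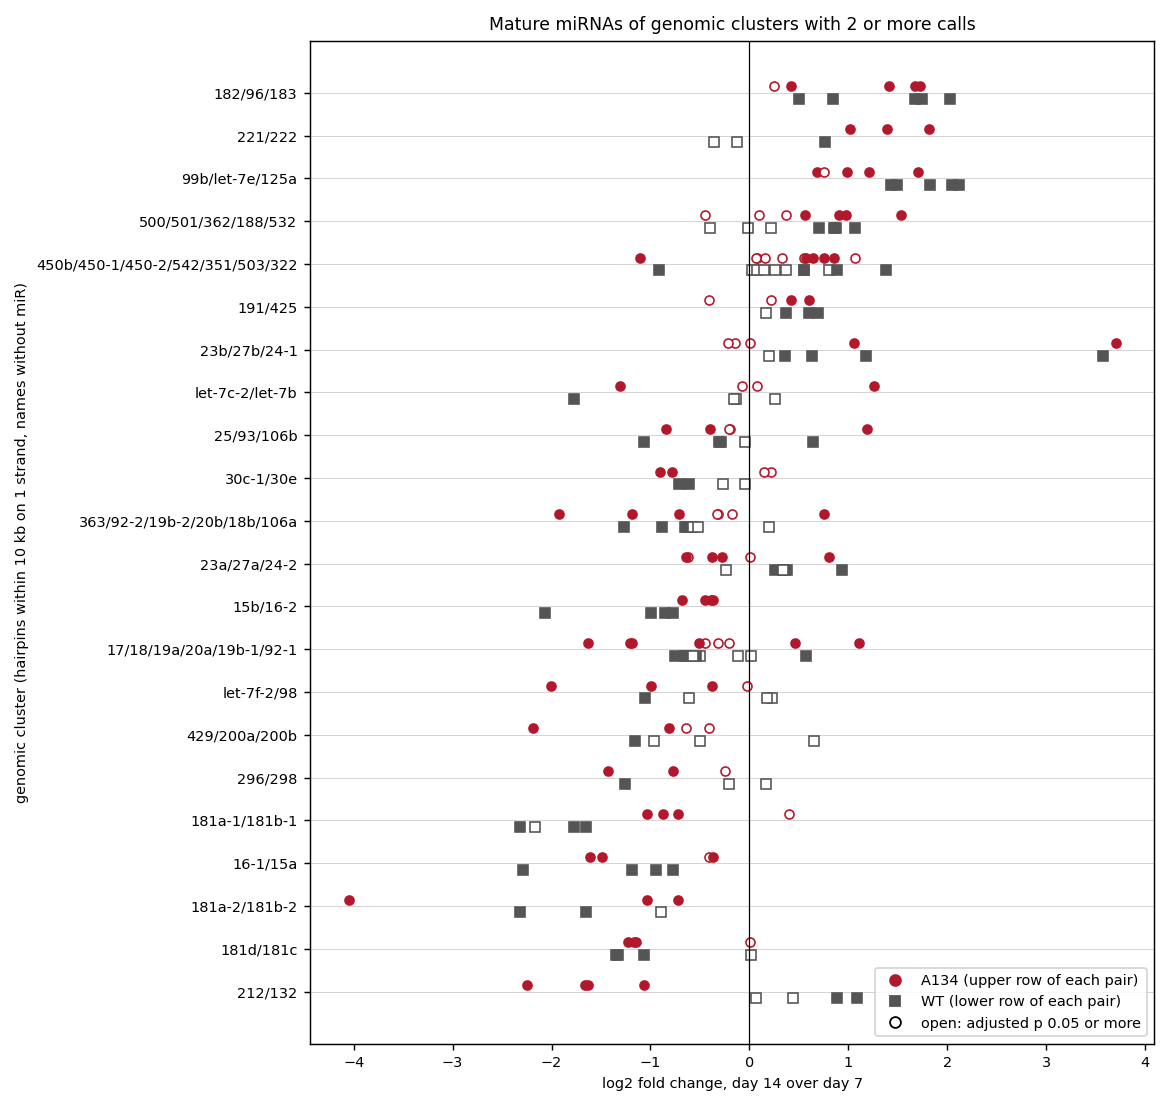
Log2 fold change of day 14 over day 7 (x axis) for each tested strand of the genomic clusters with at least 3 tested strands and 2 calls, clusters ordered by their median in A134 cells. The upper row of each cluster (circles) is A134 and the lower row (squares) WT, filled where the adjusted p was under 0.05. Strands of miR-212/miR-132 lie below 0 in A134 cells and above 0 in WT cells.

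In the paired miR-23-27-24 clusters, whose miR-24 and miR-27 restrain Th2 responses in mice, 3 of 11 tested strands rose and 3 fell. Over all tested miRNAs 21.5% rose and 23.3% fell, so these counts lay near those shares. The 3 that rose, miR-23b-5p, miR-27b-5p and miR-23a-5p, were minor strands, and miR-23a-3p, miR-27a-3p and miR-24-2-5p fell. miR-27b-5p had 227, 286 and 412 CPM at day 14, against 169, 173, 104 and 151 CPM at day 7, a log2 fold change of 1.06 ± 0.24 (SE; adjusted p = 0.00064). Its abundant partner miR-27b-3p averaged 27657 ± 3338 CPM at day 14 and 30649 ± 1655 CPM at day 7, and did not pass (adjusted p = 0.338). miR-23a-5p rose by 0.80 ± 0.25 (SE; adjusted p = 0.0105) and miR-24-2-5p changed by -0.64 ± 0.18 (SE; adjusted p = 0.00383), and with STD scaling neither passed (adjusted p = 0.0783 and 0.0729). miR-23b-5p made up 1.47% of the counts of its hairpin at day 14 and 0.0922% at day 7.

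Strands of 1 hairpin could be compared for 94 hairpins with both strands tested. Both strands were called for 22, of which 12 were higher on both, 7 lower on both and 3 opposite. In 25 hairpins only the minor strand passed, in 18 only the major strand, and in 29 neither. The median difference of log2 fold change between minor and major strand was 0.05, and 23 hairpins had strands at least 1 log2 unit apart. The 3 hairpins with opposite calls were miR-18a, miR-18b and miR-23a, each with the major strand lower and the minor strand higher.

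For miR-18b, the 3p strand was 64.0% of the hairpin's counts at day 14 and 20.9% at day 7. For miR-155, the log2 fold change was 2.19 ± 0.60 (SE; adjusted p = 0.00371) on the rare 3p strand and 0.16 on the 5p strand, which did not pass. The 3p strand made up 0.319% of the hairpin's counts at day 14 and 0.0819% at day 7, so its day 7 level rests on few counts. Differences the other way were fewer, led by miR-29a, whose 5p strand changed by -1.75 ± 0.56 (SE; adjusted p = 0.0123) against 0.00 on its 3p strand. That 5p strand averaged only 10.4 CPM at day 14, below the level of 3 counts, and 33.9 CPM at day 7. The change of the minor strand minus that of the major strand was 2.68 for miR-18b, 2.03 for miR-155 and -1.75 for miR-29a. In WT cells it was 1.47, 1.53 and 1.13. Whether these strand differences differ between the genotypes was not tested. Over the 128 hairpins with enough counts in each of the 7 libraries, the median log2 ratio of minor to major strand was -4.99 ± 0.12 at day 14 and -4.92 ± 0.23 at day 7 (SD, n = 3 and 4; two-sided exact permutation test, p = 0.743). The strands of these hairpins named here were chosen after their values were seen.

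**Figure D3:**
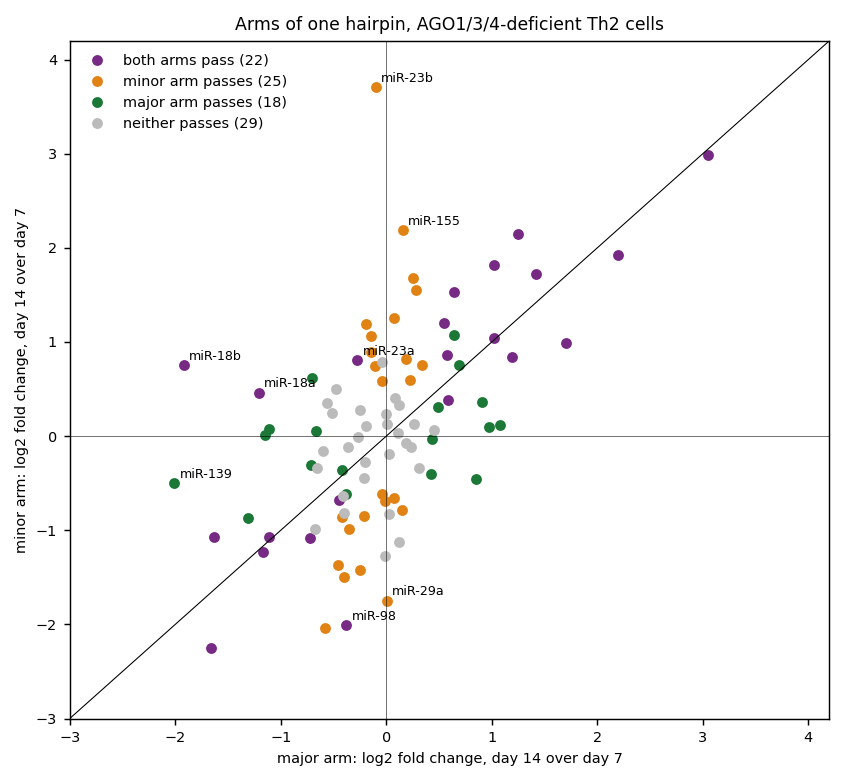
Log2 fold change of day 14 over day 7 in A134 cells for the major strand (x axis) and the minor strand (y axis) of the 94 hairpins with both strands tested. Points are hairpins coloured by which strand passed, the line marks equal change, and names mark hairpins with strands at least 1.5 log2 units apart or called in opposite directions. miR-23b and miR-155 lie far above the line with their major strand near 0.

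The same change was tested in WT cells for all 382 miRNAs, and WT values are given below for only some of those named. miR-23b-5p and miR-122-5p had the largest A134 increase and decrease among called miRNAs with a group mean of at least 50 CPM. Their WT log2 fold changes were 3.57 and -4.24. For neither did the interaction test given below pass (adjusted p = 0.961 and 0.697). In WT cells 191 of 382 miRNAs were called (50%), 96 higher and 95 lower, with a median log2 fold change of -0.03. With library sizes in place of TMM factors the WT calls were 75 higher and 113 lower around a median of -0.17, and with scaling by the STD entries 52 higher and 89 lower around a median of -0.22. Both genotypes called 125 miRNAs, 73.1% of the A134 calls and 65.4% of the WT calls, and 121 of these went the same way, 58 higher and 63 lower. The difference between the genotypes' changes was tested directly as an interaction, and it passed for 46 miRNAs (12%). The A134 change was above the WT change for 21 of them (5.5%) and below it for 25 (6.54%). With library sizes the split was 26 above and 14 below, and the median difference over all tested miRNAs was 0.11, against -0.03 with TMM. Without library 3 of WT day 14 the split was 23 above and 14 below. Of the 46, 17 were called in A134 cells and not in WT cells, 12 in WT cells and not in A134 cells, 13 in both in the same direction, and 4 in both in opposite directions.

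**Figure D4:**
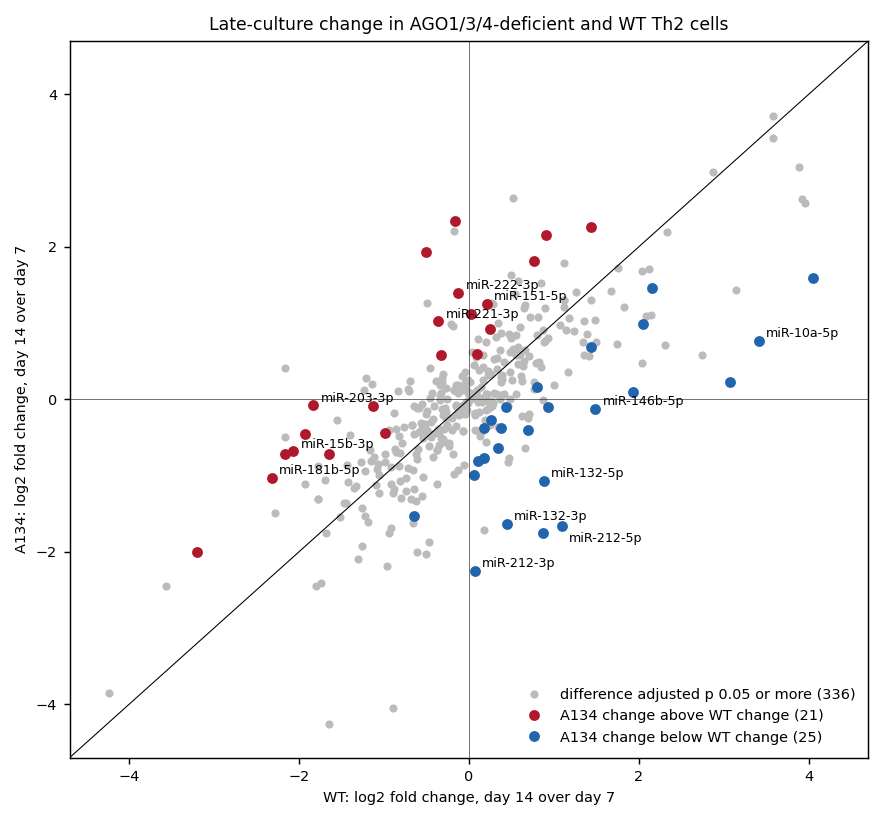
Log2 fold change of day 14 over day 7 in A134 cells (y axis) and in WT cells (x axis) for the 382 tested miRNAs. Coloured points are the 46 whose difference passed, 21 with the A134 change above the WT change and 25 below, and the line marks equal change. The miR-132/miR-212 strands lie right of and far below the line.

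The miR-132/miR-212 cluster held 4 of the 6 named differences with an A134 change below the WT change. In WT cells miR-212-5p had 2586, 2392 and 2661 CPM at day 14, against 1003, 1154, 1328 and 1287 CPM at day 7, a log2 fold change of 1.09 ± 0.19 (SE; adjusted p = 2e-05). It therefore fell in A134 cells and rose in WT cells, and the difference was -2.76 ± 0.28 (SE; adjusted p = 6.5e-08). miR-132-5p also went opposite ways, with a WT log2 fold change of 0.88 ± 0.20 (SE; adjusted p = 0.00052) and a difference of -1.95 ± 0.31 (SE; adjusted p = 7.1e-05). miR-132-3p averaged 1220.0 ± 391 CPM at day 14 and 894 ± 253 CPM at day 7 in WT cells, which did not pass (adjusted p = 0.124), and its difference was -2.08 ± 0.36 (SE; adjusted p = 0.00015). miR-212-3p averaged 230.0 ± 74.2 CPM at day 14 and 219 ± 45.1 CPM at day 7 in WT cells (adjusted p = 0.808), and its difference was -2.32 ± 0.36 (SE; adjusted p = 7.1e-05). At day 7 the A134 and WT libraries overlapped for 3 strands and the A134 libraries were higher for miR-212-3p, whereas at day 14 every A134 library was below every WT library for each of the 4 strands.

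The other 2 called in opposite directions were miR-27a-3p and miR-23a-3p of 1 cluster on chromosome 8. For miR-27a-3p the WT log2 fold change was 0.38 ± 0.12 (SE; adjusted p = 0.0104) and the difference -0.76 ± 0.17 (SE; adjusted p = 0.0033). For miR-23a-3p the A134 log2 fold change was -0.27 ± 0.11 (SE; adjusted p = 0.0422), the WT one 0.26 ± 0.11 (SE; adjusted p = 0.0433) and the difference -0.54 ± 0.15 (SE; adjusted p = 0.0194). miR-24-2-5p of the same cluster had a difference of -0.98 ± 0.24 (SE; adjusted p = 0.00528). In the paired cluster on chromosome 13, miR-23b-3p had a difference of -0.53 ± 0.18 (SE; adjusted p = 0.046). Of the 11 tested strands of both clusters, 8 rose and 0 fell in WT cells, where 25.1% of all tested miRNAs rose. As given above, the A134 call of miR-27a-3p was lost in several alternative fits.

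miR-10a-5p and miR-146b-5p were higher at day 14 in WT cells by amounts that A134 cells did not match. miR-10a-5p had 222, 397 and 351 CPM at day 14 and 152, 151, 192 and 284 CPM at day 7 in A134 libraries, which overlapped. Its log2 fold change was 0.76 ± 0.34 (SE; adjusted p = 0.0664), and it passed as higher without library 2 of day 14 (adjusted p = 0.0335), without library 4 of day 7 (adjusted p = 0.0315) or with DESeq2 (adjusted p = 0.0496). It also passed without the filter (adjusted p = 0.00641) and with only the groups of the contrast (adjusted p = 0.0167). The same held for loess offsets (adjusted p = 0.0336) and all locus entries (adjusted p = 0.0429). In WT libraries it had 1554, 1599 and 1511 CPM at day 14, against 167, 133.8, 135 and 151 CPM at day 7, and the difference between the changes was -2.64 ± 0.45 (SE; adjusted p = 0.00015). miR-146b-5p, which shares its seed with miR-146a-5p, had 265, 364 and 302 CPM at day 14 and 408, 384, 301 and 231 CPM at day 7 in A134 libraries. In WT libraries it had 907, 949 and 1033 CPM at day 14, against 316, 386, 345 and 324 CPM at day 7, and the difference was -1.62 ± 0.26 (SE; adjusted p = 7.1e-05). miR-152-3p rose in both genotypes, by 1.59 on the log2 scale in A134 cells and by 4.05 in WT cells, and the difference was -2.45 ± 0.48 (SE; adjusted p = 0.00074). miR-155-5p did not pass in A134 cells, was 0.80 ± 0.13 (SE; adjusted p = 1e-05) in WT cells, and differed by -0.64 ± 0.19 (SE; adjusted p = 0.0219).

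On the side where the A134 change lay above the WT change, all 3 tested miR-221/miR-222 strands were called. miR-222-3p had 529.6, 333 and 297 CPM at day 14 and 433, 389, 436 and 432 CPM at day 7 in WT libraries, an overlap, and the difference was 1.52 ± 0.26 (SE; adjusted p = 0.00017). miR-221-3p had 675, 589.5 and 499 CPM at day 14 and 845, 736, 730.0 and 713 CPM at day 7 in WT libraries, and the difference was 1.38 ± 0.28 (SE; adjusted p = 0.00081). miR-221-5p rose in WT cells too, by 0.76 ± 0.23 (SE; adjusted p = 0.00754) on the log2 scale, and its difference was 1.05 ± 0.35 (SE; adjusted p = 0.046). miR-151-5p, which rose in A134 cells, averaged 1636 ± 189 CPM at day 14 and 1418 ± 317 CPM at day 7 in WT cells, and the difference was 1.04 ± 0.21 (SE; adjusted p = 0.00081). The WT changes of miR-222-3p, miR-221-3p and miR-151-5p did not pass.

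For 3 further miRNAs the positive difference came with a larger decrease in WT cells. miR-181b-5p had 215, 253 and 188 CPM at day 14, against 1174, 1093, 1024 and 1083 CPM at day 7 in WT libraries, and the difference was 1.29 ± 0.21 (SE; adjusted p = 7.1e-05). miR-181a-5p differed in the same direction, by 0.93 ± 0.24 (SE; adjusted p = 0.0102), while miR-181c-5p and miR-181d-5p did not pass (adjusted p = 0.811 and 0.708). miR-15b-3p, a minor strand from an intron of Smc4, averaged 924 ± 161 CPM at day 14 and 1477 ± 406 CPM at day 7 in A134 cells. In WT cells it averaged 706 ± 101 CPM at day 14 and 2963 ± 193 CPM at day 7, and the difference was 1.38 ± 0.28 (SE; adjusted p = 0.00081). Without library 3 of day 14 the A134 decrease of miR-15b-3p did not pass (adjusted p = 0.059), nor with STD scaling (adjusted p = 0.0927). miR-203-3p had 128, 91.0 and 135 CPM at day 14 and 169, 103, 131 and 97.6 CPM at day 7 in A134 libraries, which overlapped. In WT libraries it had 38.1, 34.0 and 46.0 CPM at day 14, against 142, 166, 141 and 120.4 CPM at day 7, and the difference was 1.75 ± 0.36 (SE; adjusted p = 0.00093).

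**Figure D5:**
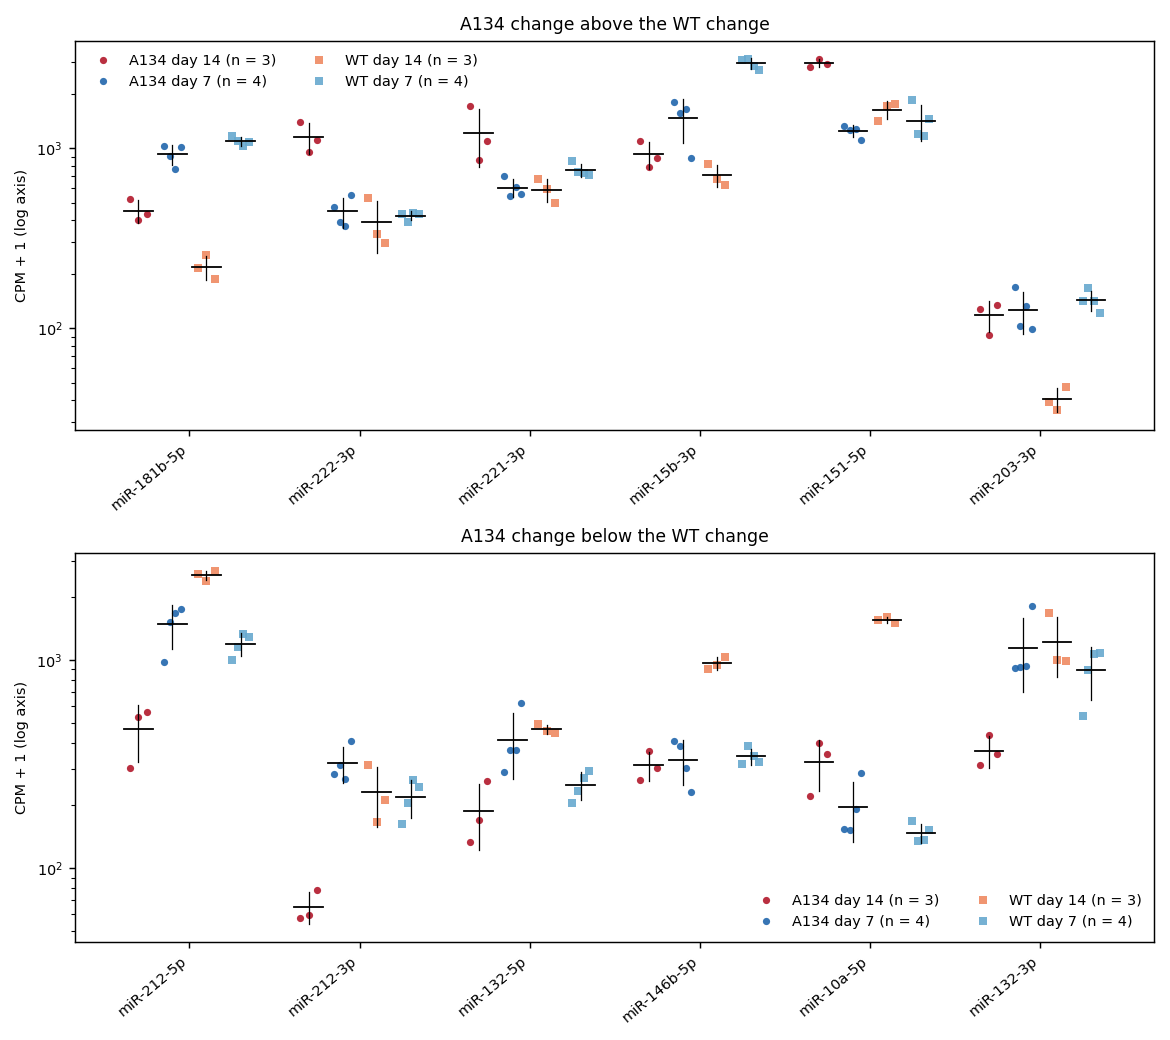
Levels, as CPM + 1 on a log axis, of the 6 miRNAs with the smallest p in each direction of the difference between genotypes. Points are libraries, bars the mean and SD, and each miRNA shows A134 day 14, A134 day 7, WT day 14 and WT day 7 from left to right. The A134 day 14 points of the miR-132/miR-212 strands lie below the A134 day 7 and the WT day 14 points.

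Lists that describe T cell states were read against the 21.5% of all tested miRNAs called higher and the 23.3% called lower, with a median log2 fold change of -0.04. Of 20 tested miRNAs known to be induced on T cell activation, 6 rose and 6 fell at day 14, with a median log2 fold change of -0.23. Of 17 known to be lost on activation, 5 fell and 12 did not pass, with a median of -0.17. The counts called lower in both lists lay near the share over all tested miRNAs. Of 14 regulators of Th2 responses, 4 fell (miR-19a-3p, miR-19b-3p, miR-27a-3p and miR-23a-3p) and 1 rose, miR-128-3p, whose log2 fold change was 0.39 ± 0.13 (SE; adjusted p = 0.0156) and which did not pass without library 4 of day 14 (adjusted p = 0.0634), with STD scaling (adjusted p = 0.268) or without the filter (adjusted p = 0.0552). The tested members of the miR-10, miR-26, miR-29, miR-103/miR-107 and miR-146 families and both strands of the hypoxia-induced miR-210 did not pass, with log2 fold changes from -0.56 for miR-210-3p to 1.43 for miR-10b-5p.

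Of 7 miRNAs that skip the nuclear enzyme Drosha or are cut by AGO2, 3 rose, against 21.5% of all tested miRNAs. miR-484 had 5481, 5903 and 6376 CPM at day 14, against 4065, 4199, 3538 and 3904 CPM at day 7, a log2 fold change of 0.59 ± 0.11 (SE; adjusted p = 0.00012), which did not pass with STD scaling (adjusted p = 0.0538). miR-486a-5p, whose hairpin AGO2 is known to cut, had 175, 241 and 306 CPM at day 14, against 81.6, 86.5, 120.5 and 106 CPM at day 7, a log2 fold change of 1.30 ± 0.29 (SE; adjusted p = 0.00054). The groups did not overlap for either. miR-320-3p changed by 0.35 ± 0.13 (SE; adjusted p = 0.0245) and did not pass without library 1 or library 2 of day 7 or without library 2 of day 14 (adjusted p = 0.0771, 0.0655 and 0.0695), nor with library sizes, without the filter or with STD scaling (adjusted p = 0.0724, 0.101 and 0.290). miR-451a, which is made by AGO2 without Dicer, was at 0 in all 7 libraries.

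In the miRNA cluster of an intron of Sfmbt2, 5 of 19 tested strands fell and 2 rose, against 23.3% lower and 21.5% higher over all tested miRNAs. Some entries of this cluster hold nearly the same reads, such as miR-669a-5p with 11017 and miR-669p-5p with 11015 counts over the 22 libraries of the experiment, and both are among the 5. With such entries counted once, 4 of 17 fell and 2 rose. miR-466f-5p had 37.8, 32.5 and 20.4 CPM at day 14, against 141, 91.9, 98.6 and 62.1 CPM at day 7, a log2 fold change of -1.76 ± 0.37 (SE; adjusted p = 0.00028), and miR-467b-5p changed by 0.68 ± 0.22 (SE; adjusted p = 0.0124) with overlapping groups. miR-669e-5p fell by a log2 fold change of -0.92 ± 0.27 (SE; adjusted p = 0.00558), which did not pass without library 1 of day 7 (adjusted p = 0.0658), and miR-467b-5p did not pass without library 2 of day 7 (adjusted p = 0.0555) or with STD scaling (adjusted p = 0.111). Of the imprinted Dlk1-Dio3 cluster only miR-127-3p was tested out of 34 members. Its log2 fold change was -2.10 ± 0.68 (SE; adjusted p = 0.0124) on 5 counts at day 14 and 25 at day 7, and it did not pass without library 2 or 4 of day 14 or library 2 of day 7 (adjusted p = 0.0571, 0.104 and 0.0594).

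Markers of T and lymphoid cells were present, as miR-142a-5p had 6566 to 10055 CPM and miR-155-5p 12332 to 19568 CPM over the 7 libraries. This list does not set Th2 cells apart from other lymphoid cells. Of the 6 T and lymphoid markers, 3 fell and 3 did not pass, where 23.3% of all tested miRNAs fell. Their summed level was 43276 to 57651 CPM at day 14 and 61217 to 67567 CPM at day 7. Of the 14 markers of epithelial, liver and muscle cells, 9 were tested and 7 fell, with a summed level of 3803 to 4459 CPM at day 14 and 8943 to 9771 CPM at day 7. The muscle marker miR-133a-3p and the epithelial marker miR-205-5p were at 0 in all 7 libraries. Most of that sum was miR-192-5p, which had 3504, 3101 and 2805 CPM at day 14, against 7407, 7647, 7442 and 6867 CPM at day 7, a log2 fold change of -1.23 ± 0.15 (SE; adjusted p = 2.1e-07). In the miR-200/miR-141/miR-429 family, which represses Zeb1 and Zeb2 in epithelium, 4 of 5 fell, with miR-429-3p at -2.19 and miR-141-3p at -1.53 on the log2 scale. miR-429-3p had only 0, 1 and 6 counts in the day 14 libraries, against 9, 10, 13 and 4 at day 7. Its day 14 mean, 10.3 ± 12.7 CPM (SD, n = 3), lay below the level of 3 counts. Leaving out 1 library at a time moved its log2 fold change between -4.03 and -1.60. miR-200a-3p and miR-200c-3p of this family each lost their call in 4 of the 7 fits that left out an A134 library of either day. These were the fits without library 2 or 3 of day 14 or library 1 or 3 of day 7 for miR-200a-3p (adjusted p = 0.0692 to 0.283), and without library 2, 3 or 4 of day 14 or library 4 of day 7 for miR-200c-3p (adjusted p = 0.0512 to 0.126). Neither passed with DESeq2 (adjusted p = 0.0644 for miR-200a-3p and 0.0631 for miR-200c-3p), with library sizes (0.0649 and 0.0874), with STD scaling (0.137 and 0.261) or without the filter (0.152 and 0.317). Of the 8 endothelial and stromal markers 4 were tested and 2 fell, miR-143-3p and miR-126a-5p, with a sum of 566 to 780.3 CPM at day 14 and 695 to 1001 CPM at day 7. miR-145a-5p and miR-214-3p were at 0, and miR-126a-5p did not pass when library 1 of day 7 or library 2 or 3 of day 14 was left out (adjusted p = 0.0862, 0.0598 and 0.135) or with STD scaling (adjusted p = 0.109).

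Of the 7 myeloid markers 3 were tested and 2 rose, miR-99b-5p and miR-34a-5p, where 21.5% of all tested miRNAs rose. However, miR-223-3p, the defining one, had 1 count in 1 day 14 library and 0 in the other 6. miR-223-5p, miR-511-3p and miR-511-5p were at 0. miR-34a-5p changed by 0.72 ± 0.30 (SE; adjusted p = 0.049) and did not pass without library 2 or 4 of day 7 or library 2 or 4 of day 14 (adjusted p = 0.0758 to 0.177), nor with DESeq2, library sizes or STD scaling (adjusted p = 0.0546, 0.0742 and 0.145). Of the 5 red cell and platelet markers 2 were tested and both rose, miR-96-5p and miR-486a-5p, while miR-451a and miR-144-5p were at 0 and miR-144-3p had 2 counts in 1 day 7 library. The summed level of this list was 3088 to 4415 CPM at day 14 and 1119 to 1615 CPM at day 7, nearly all of it miR-96-5p. That miRNA is also on the list of those induced on T cell activation, so the sum does not single out red cells or platelets.

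Over all names, 813 had a count in a day 14 library, 823 in a day 7 library and 684 in both. With at least 10 counts over 1 group and 0 in the other, miR-7687-5p (11 counts at day 14) and miR-677-5p (27 counts at day 7) were the only names. Neither passed the filter on low counts, and both were picked after their values were seen. miR-677-5p had 0 counts in each day 14 library, against 7, 7, 12 and 1 counts in the day 7 libraries.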

How the data were processed

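The deposited files give raw counts of reads per mature miRNA and locus, 1 file per library, as the authors made them. Per the submitters' processing notes the genome build was GRCm38, with no aligner or counter named in these notes or the labels. Per the labels' protocols, total RNA was isolated on columns and sequenced single-end from Illumina TrueSeq libraries, while the series' design text speaks of paired-end reads. Each file lists 2119 entries, of which 9 named STD were dropped (in the A134 Th2 libraries 40.5% to 45.4% of all counts; what they are is not given). For the 82 names with several locus entries the entry with the highest total over all libraries was kept, leaving 1966 names. Counts were tested with edgeR 4.0.16 in R 4.3.3 (quasi-likelihood, TMM scaling, filterByExpr with a minimum count of 10) over the 22 libraries of the AGO1/3/4 experiment with group means, with Benjamini-Hochberg adjustment over 382 miRNAs. Contrasts were day 14 over day 7 in A134 cells, the same in WT cells, and their difference. The standard error was the log2 fold change divided by the root of F. Levels of each library are CPM after TMM. The filter keeps a miRNA that is counted in 1 group only. Values per library were compared by exact permutation tests. The procedure was tested on simulated counts. Sequences are from RefSeq (GRCm38.p6), with 306 of the 382 tested names matched. miR-151-3p, miR-151-5p, miR-147-3p, miR-1948-3p, miR-1949, miR-150-5p and miR-486a-5p are among those named only.

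The text names the 12 largest called increases and decreases with a group mean of at least 50 CPM, the 10 most abundant miRNAs, the core T cell set, up to 4 called members of each list, and the 6 smallest p of the difference in each direction. Members, lists and markers were chosen with earlier results of these data known. Alternatives were DESeq2 1.42.0 and its size factors, other scalings, no filter, all locus entries, other sets of libraries and leaving out each library. No 2 replicates were alike within counting error (chi-square per degree of freedom 3.35 to 14.7).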

Additional observations from a re-analysis of the deposited data

Results flagged for a closer look

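Groups of 4 values were examined for a single sample far from the rest, 190 of them levels of named miRNAs and further ones single values per library, such as depth. In all, 9 were singled out by the gap to the nearest of the others, where chance alone singles out about 1 in 20 groups. In A134 day 7, library 4 was apart in depth, with 125803 counts, in its share of STD counts, 45.4%, and in detected names, 530. The same library was apart for let-7i-5p, at 42124 CPM, and for miR-132-3p, at 1819 CPM. In WT day 7, library 1 was apart for miR-99a-5p at 154 CPM, miR-16-5p at 25509 CPM and miR-182-5p at 24377 CPM, and library 2 for miR-222-3p at 389 CPM.

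The change between the days differed between the genotypes, by the interaction test, for 28 of the 95 named miRNAs, against 12% of all 382 tested. Of the 95, 12 were named for the smallest p of this same difference, so the choice raised that count. The values here are the A134 log2 fold change minus the WT one. Below 0 were miR-212-5p at -2.76, miR-10a-5p at -2.64, miR-152-3p at -2.45, miR-212-3p at -2.32, miR-132-3p at -2.08, miR-132-5p at -1.95, miR-146b-5p at -1.62 and miR-142a-3p at -1.04. Smaller negative differences were those of miR-24-2-5p at -0.98, miR-301b-3p at -0.89, miR-27a-3p at -0.76, miR-99b-5p at -0.74, miR-155-5p at -0.64 and miR-98-5p at -0.55. Above 0 were miR-1941-5p at 2.50, miR-203-3p at 1.75, miR-222-3p at 1.52, miR-15b-3p at 1.38, miR-221-3p at 1.38, miR-181b-5p at 1.29, miR-151-3p at 1.24, miR-139-5p at 1.20, miR-221-5p at 1.05 and miR-151-5p at 1.04. Smaller positive differences were those of miR-181a-5p at 0.93, miR-31-5p at 0.82, miR-15b-5p at 0.55 and miR-484 at 0.50.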

How the results depend on the processing

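No call of the 95 named miRNAs changed direction under any alternative tried. Scaling by the STD entries gave 113 calls for A134 day 14 against day 7, 56 higher and 57 lower, against 171 with TMM, and 15 for the difference between genotypes, 7 higher and 8 lower, against 46. It gave 52 higher calls in WT cells, against 96. Of the 77 named miRNAs called in A134 cells, 21 did not pass under STD scaling (adjusted p 0.0509 to 0.290), 10 without the filter (0.0509 to 0.317), and 1 to 4 under each other scaling, DESeq2, all locus entries, near-identical entries counted once or only the groups of the contrast. Of the 12 named differences 11 stayed called under STD scaling, and all 12 under the other alternatives. Library sizes gave 14 lower differences, against 25. DESeq2 called 156 in A134 cells, no filter 155 of 1211 tested, all locus entries 181 of 474 tested, and near-identical entries counted once, an alternative chosen after seeing the data, 167. Leaving out each library in turn gave 141 to 169 calls in A134 cells, 166 to 186 in WT cells and 35 to 53 differences, with lower differences from 14 (without library 3 of WT day 14) to 30. Replicate numbers showed no sign of pairing the libraries (correlations of deviations for equal numbers -0.07 to -0.03 in A134, 0.03 to 0.08 in WT). For unequal numbers the correlations were 0.002 to 0.07 in A134 and -0.19 to 0.13 in WT. With 3 numbers shared by the days, this cannot show that the libraries were unpaired. With the replicate number as a block over all groups 155 were called in A134 cells, and with only the groups of the contrast 112, of which 51 lower, with 13 higher differences. Of the 77 named calls 4 and 18 did not pass in these 2 block fits. The cause of these shifts was not tested. miRNAs of few counts, under about 20 in a group, carry the widest errors, and no change below the level of 3 counts can be seen at this depth.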
